A study of Drosophila melanogaster with 6 samples.

Results

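Near-silent genes that came on in flight muscle depleted of M1BP are described here. They are the nuclear genes with under 0.5 CPM in each of 3 WT libraries and 1 CPM or more in each of 3 M1BP RNAi libraries, where nuclear CPM (given as CPM throughout) is a gene's reads per 1000000 reads on genes outside the mitochondrial genome. The rule leaves out names that start with ND- or Hsp, as well as sei, roX1 and roX2. That removed 0 genes that met both thresholds and 10 that were under 0.5 CPM in each WT library. The rule took 50 of the 8996 other nuclear genes that were under 0.5 CPM in each WT library (0.556%), and 50 of 17457 nuclear genes in all. Because the members were chosen by these values, their difference between the groups is a description and carries no test, and the groups cannot overlap in any of them.

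PolyA RNA was sequenced from indirect flight muscle, dissected by hand as the dorsolongitudinal muscles of Drosophila melanogaster pupae at 64 h after puparium formation (APF), raised at 25 °C. The M1BP RNAi group carried Mef2-GAL4 with UAS-M1BP RNAi, and the WT group carried Mef2-GAL4 crossed to WT, with no UAS transgene. Each of the 3 libraries per group pooled the muscles of 6 to 8 pupae. Mef2-GAL4 is a driver for developing muscle whose activity is not limited to it (neurons and fat body are known sites), so RNA of other cells in the dissected tissue was open to the same knockdown, and the sex of the pupae is not given.

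M1BP, a transcription factor with zinc fingers, recognises Motif 1, a core promoter element found mostly at broadly expressed genes. Flight muscle fibres are postmitotic: their nuclei come from myoblasts that stopped dividing before fusion, and genes of DNA replication and chromosome segregation are normally turned down in such cells. A gene near 0 in a bulk sample may be off in every nucleus or on in a few, and fewer cells of a type cannot be told apart from less RNA per cell in these data.

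The libraries held 42215400 to 43136388 counts in M1BP RNAi and 43017456 to 54890681 in WT, and nuclear genes took 33036073 to 35929028 of them in M1BP RNAi and 23995145 to 40493930 in WT. In WT, 0.5 CPM was 12 to 20.2 counts and the floor of detection (3 counts, counting error only) was 0.0741 to 0.125 CPM. M1BP itself stood at 4.62, 5.39 and 3.95 CPM in M1BP RNAi, against 9.78, 8.46 and 11.0 CPM in WT, a log2 fold change of -1.38 ± 0.15 (SE). The flight muscle markers Act88F, fln, TpnC4, Mhc, wupA and up summed to 122300 to 130200 CPM in M1BP RNAi and 138700 to 154000 CPM in WT. The RNAs roX1 and roX2, which are made in males, set libraries apart: roX1 was at 47.3, 45.6 and 94.7 CPM in M1BP RNAi, against 0.0494, 0.25 and 27.7 CPM in WT replicates 1, 2 and 3. WT replicate 3, the WT library with roX1, held the members at a summed 11.0 CPM, beside 9.48 and 9.67 CPM in the other WT libraries. A gene at 0.5 CPM or more in that library could not be a member, so these sums do not speak to the roX1 difference. Without WT replicate 3 the rule took 77 genes, and with it as the sole WT library 118 (a setting added after the data were seen), and both sets hold the 50 by construction.

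Summed over the 50 genes, the level was 171, 173 and 151 CPM in M1BP RNAi, against those 9.48, 9.67 and 11.0 CPM in WT. The rule itself sets the 3 M1BP RNAi sums above the 3 WT sums. The median member had a mean of 2.00 CPM in M1BP RNAi and 0.209 CPM in WT, and the ratio of the means ran from 3.46 to 430 with a median of 10.7. Most members were thus weakly expressed also after the knockdown. Per kb of exon, the median member reached 1.11 CPM per kb in M1BP RNAi, where the median of the genes tested was 4.48, and 4 members lay above that median.

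**Figure D1:**
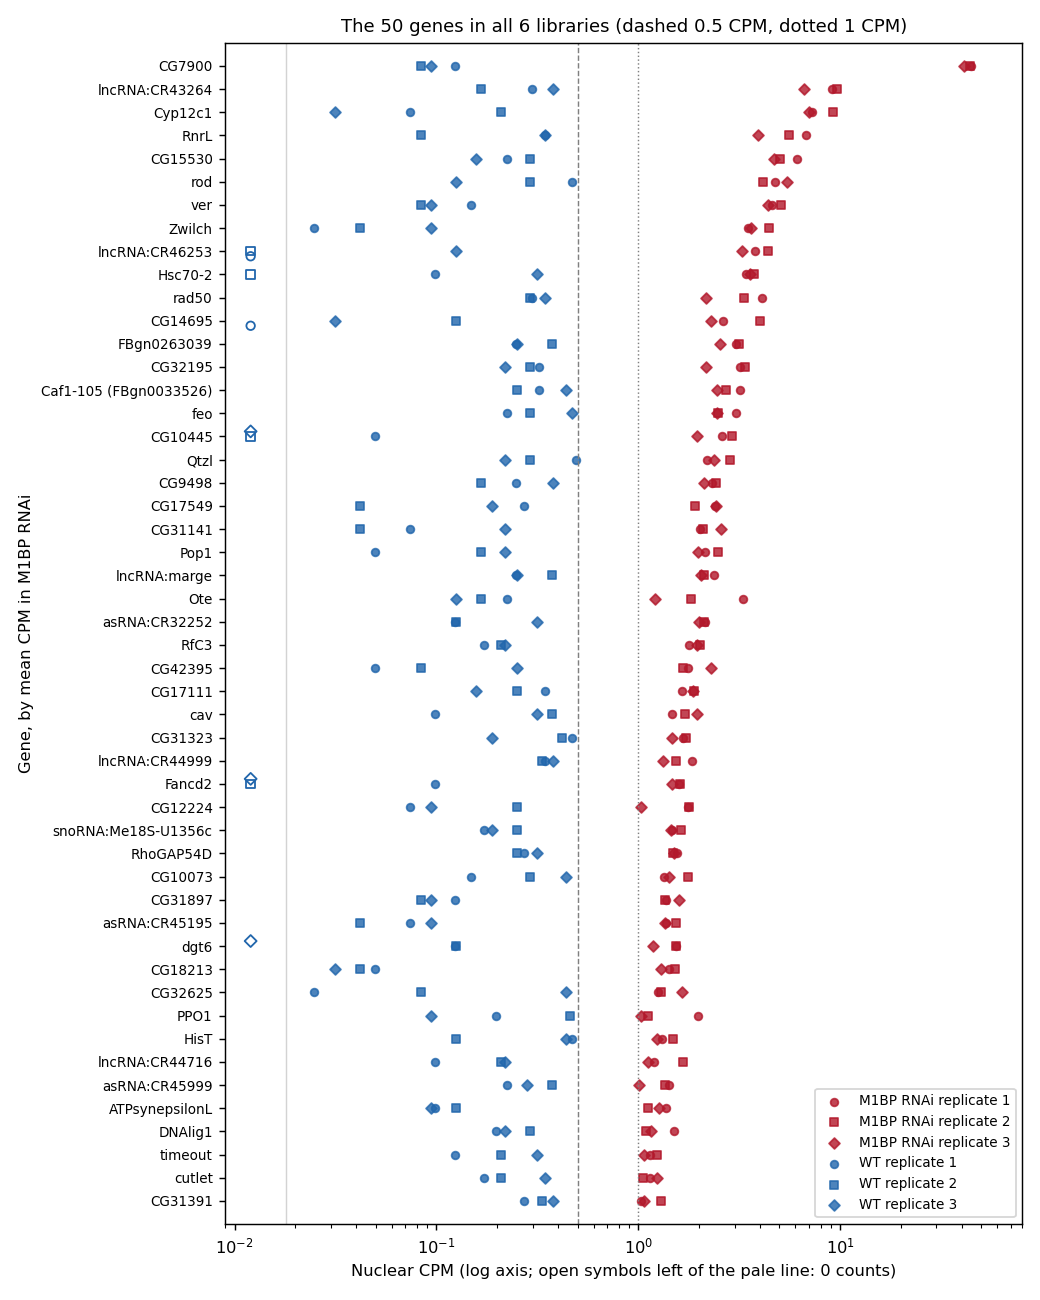
Nuclear CPM (x axis, log scale) of each of the 50 genes (y axis, ordered by mean CPM in M1BP RNAi) in the 3 M1BP RNAi libraries (red) and the 3 WT libraries (blue), with open symbols for libraries at 0 counts. The highest WT value of any member was 0.494 CPM and the lowest M1BP RNAi value was 1.00 CPM, as the rule demands, and CG7900 stood apart at 41.0 to 44.5 CPM.

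WT levels were low but seldom 0. At least 1 count was present for 50, 50 and 50 members in M1BP RNAi replicates 1, 2 and 3, and for 48, 46 and 47 members in WT replicates 1, 2 and 3, and 6 members had 0 counts in at least 1 WT library. In the edgeR fit over all genes, members had log2 fold changes from 1.47 to 8.34 with a median of 3.09, where the median over the 8806 genes tested was -0.02. All 50 members passed the filter on low counts, which their M1BP RNAi libraries alone could satisfy. At an adjusted p of 0.001 or less and at least 1.5-fold, 22 members were among the genes called higher, beside 2.20% of all genes tested, and since the rule used this contrast the count says nothing further about them. For other genes, called and not called refer to this edgeR threshold unless DESeq2 is named.

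The scale used matters to a rule of this kind. The ratio of mean nuclear CPM was 0.30 on the log2 scale above 0 for the median gene tested, whereas TMM scaling, which edgeR uses, put it at -0.02. With TMM library sizes the rule took 38 genes, all of them among the 50, and with counts of the mitochondrial genome kept in the denominator it took 64, of which 37 were shared.

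The same thresholds with the groups exchanged took far fewer genes. Only 6 of 8681 genes under 0.5 CPM in each M1BP RNAi library (0.0691%, same names left out) had 1 CPM or more in each WT library. They were CG31473, pie, CG13373, CG12288, dtr and the noncoding RNA FBgn0065087. All 59 exon bases of FBgn0065087 belong also to Dip-C on the same strand, so its reads cannot be told apart from those of Dip-C. The highest of them in WT, CG31473, had 0.0557, 0.151 and 0.265 CPM in M1BP RNAi and 4.25, 4.54 and 2.85 CPM in WT, and 99 of its exon bases belong also to sgll on the same strand. pie had 0.445, 0.303 and 0.177 CPM in M1BP RNAi and 1.56, 1.63 and 4.70 CPM in WT, with WT replicate 3 the highest. CG13373 had means of 0.279 ± 0.0971 CPM in M1BP RNAi and 1.72 ± 0.251 CPM in WT (SD, n = 3 each), and CG12288 and dtr reached 1.57 ± 0.379 and 1.29 ± 0.129 CPM in WT. With TMM library sizes the counts were 38 genes that came on and 11 that went off, and without any 1 library they were 54 to 77 and 6 to 11.

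**Figure D2:**
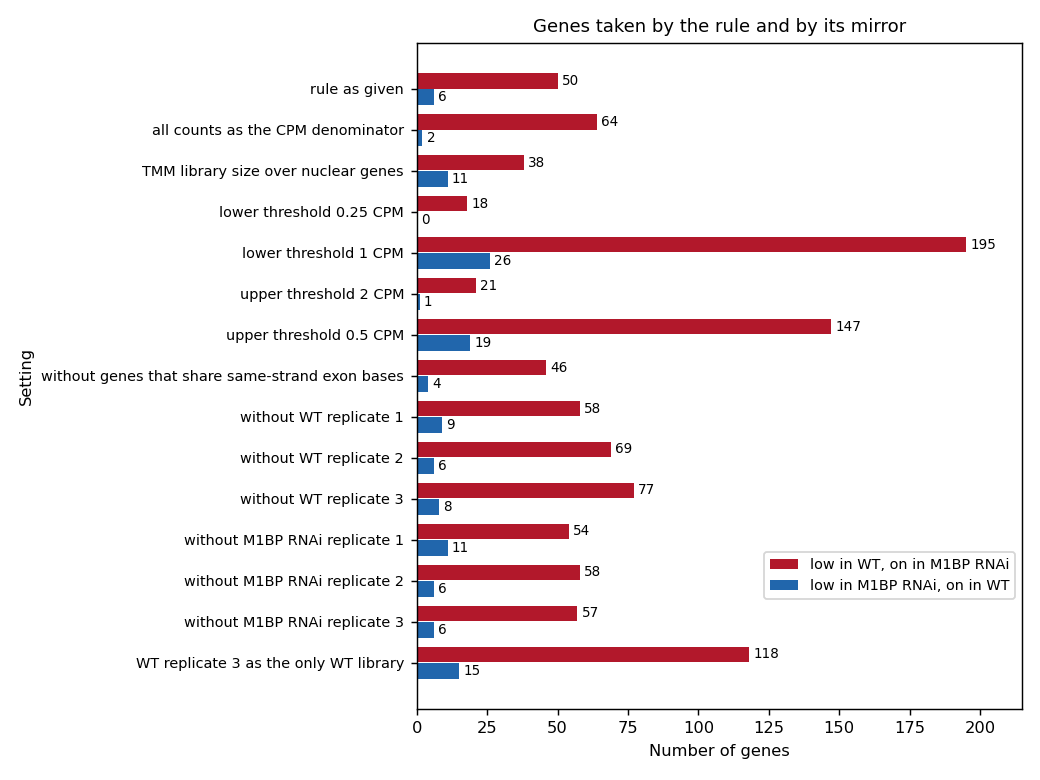
Number of genes (x axis) taken by the rule (red, low in WT and on in M1BP RNAi) and by its mirror (blue, low in M1BP RNAi and on in WT) with the thresholds as given, under each alternative and without each library. The red bars run from 18 to 195 genes and the blue bars from 0 to 26, and red is longer than blue in each of the 15 settings.

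CG7900, on chromosome 3R (8094124 to 8105083, plus strand, dm6), had by far the highest CPM of the members. Its libraries read 44.5, 44.0 and 41.0 CPM in M1BP RNAi, against 0.123, 0.0834 and 0.0940 CPM in WT. The 3 M1BP RNAi libraries agreed closely, and each WT library was near the floor, with 10 counts in WT altogether. The pooled ratio was 416, with an exact 95% counting interval from 226 to 869, and the log2 fold change was 8.34 ± 0.14 (SE), the largest of the module. CG7900 alone made up 26.2% of the summed level of the members in M1BP RNAi, and per kb of exon it stood higher than 80.3% of the genes tested.

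After CG7900 came lncRNA:CR43264 and Cyp12c1. lncRNA:CR43264, a noncoding RNA of 318 exon bases on chromosome X (5831898 to 5832215, minus strand), had 9.10, 9.63 and 6.64 CPM in M1BP RNAi and 0.296, 0.167 and 0.376 CPM in WT, and at 26.6 CPM per kb it was the highest member for its length. It lies inside CG15765, which runs on the opposite strand and had 0.440 ± 0.0764 CPM in M1BP RNAi and 0.520 ± 0.367 CPM in WT (SD, n = 3 each). Cyp12c1, a cytochrome P450 of the mitochondrial type on chromosome 3L (18684259 to 18686319, minus strand), had 7.26, 9.23 and 7.02 CPM in M1BP RNAi and 0.0741, 0.208 and 0.0313 CPM in WT, a log2 fold change of 6.00 ± 0.41 (SE). Of its relatives, Cyp12e1 averaged 3.30 CPM in M1BP RNAi and 2.24 CPM in WT and was not called, Cyp12b2, at -0.53 ± 0.27 on the log2 scale (SE), was not called, and the other 4 Cyp12 genes were too low to be tested.

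CG15530 was the other member at 5 CPM or more that belongs to none of the groups below. It had 6.10, 5.02 and 4.72 CPM in M1BP RNAi and 0.222, 0.292 and 0.157 CPM in WT. The 2 values nearest each other between the groups, 4.72 and 0.292 CPM, were more than 10-fold apart, where the rule itself demands a gap.

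Members with a role on chromosomes come next. By textbook role, 15 of the 50 belong to DNA replication, repair, telomere capping, chromatin assembly, the nuclear lamina or the mitotic spindle. These groups and their other subunits were drawn up after the values were seen, so they order the description and are not tested, and the share of such roles among all near-silent genes was not counted. Among members that serve chromosome segregation, rod and Zwilch encode the kinetochore proteins that, with Zw10, form the complex that recruits dynein and spindle checkpoint proteins. rod had 4.76, 4.15 and 5.43 CPM in M1BP RNAi and 0.469, 0.292 and 0.125 CPM in WT. Zwilch had 3.51, 4.45 and 3.63 CPM in M1BP RNAi and 0.0247, 0.0417 and 0.0940 CPM in WT, where it rested on 5 counts in all. Both had all M1BP RNAi libraries above 3 CPM, and the rule demands WT libraries below 0.5 CPM. Their partner Zw10 was present in both groups, at 4.70 CPM in M1BP RNAi and 4.20 CPM in WT, with a log2 fold change of -0.15 ± 0.13 (SE, adjusted p 0.433 in edgeR).

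feo encodes a microtubule-bundling protein of the central spindle, and dgt6 a subunit of augmin, which nucleates microtubules from existing ones. feo had 3.03, 2.48 and 2.45 CPM in M1BP RNAi and 0.222, 0.292 and 0.470 CPM in WT. dgt6 had 1.53, 1.54 and 1.18 CPM in M1BP RNAi and 0.123, 0.125 and 0 CPM in WT. Of the other 8 augmin subunits, 3 were too low to test and none of the remaining 5 was called by edgeR, 4 of them with an unadjusted p under 0.05, and DESeq2 called none of the 8. Of these the highest log2 fold changes were those of msd1 (2.70 ± 0.39 SE), at 0.696 CPM in M1BP RNAi and 0.0838 CPM in WT, and dgt3 (2.19 ± 0.49 SE), at 0.665 CPM in M1BP RNAi and 0.113 CPM in WT. msd5 averaged 0.837 CPM in M1BP RNAi and 0.179 CPM in WT, with 1.15 CPM in M1BP RNAi replicate 3 alone above the 1 CPM that the rule asks for.

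Telomeres were represented by ver and cav, which encode subunits of terminin, the protein cap of fly chromosome ends, together with moi. ver, on chromosome 3L (12523987 to 12525150, plus strand), had 4.59, 5.09 and 4.39 CPM in M1BP RNAi and 0.148, 0.0834 and 0.0940 CPM in WT, and its log2 fold change of 5.02 ± 0.25 (SE) was among the most precise of the module. cav had 1.48, 1.70 and 1.95 CPM in M1BP RNAi and 0.0988, 0.375 and 0.313 CPM in WT. moi was already expressed, at 6.03 CPM in M1BP RNAi and 3.77 CPM in WT, and was not called (log2 fold change 0.35 ± 0.16 SE, adjusted p 0.154 in edgeR).

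Genes of replication and nucleotide supply followed. RnrL, the large subunit of ribonucleotide reductase, which makes deoxyribonucleotides, had 6.74, 5.60 and 3.92 CPM in M1BP RNAi and 0.346, 0.0834 and 0.345 CPM in WT. RnrS, the small subunit, averaged 0.756 CPM in M1BP RNAi and 0.242 CPM in WT and was called by neither tool (adjusted p 0.0412 in edgeR). RfC3 and cutlet belong to clamp loaders, which place the sliding clamp on DNA. RfC3 had 1.78, 2.03 and 1.95 CPM in M1BP RNAi, against 0.173, 0.208 and 0.219 CPM in WT, among the tightest members in both groups. cutlet lay close to the threshold, at 1.14, 1.06 and 1.24 CPM in M1BP RNAi and 0.173, 0.208 and 0.345 CPM in WT. Other clamp loader subunits moved as well: Gnf1 rose, at 66.1 CPM in M1BP RNAi and 25.6 CPM in WT (log2 fold change 1.05 ± 0.07 SE), and RfC4 rose, at 5.10 CPM in M1BP RNAi and 1.57 CPM in WT (1.37 ± 0.15 SE), while RfC38, elg1 and Rad17 were called by neither edgeR nor DESeq2. RfC4 lost its call whichever library was left out, and Gnf1 kept it without WT replicate 2 or 3 only. DNAlig1, the ligase that joins replicated fragments, had 1.5, 1.09 and 1.15 CPM in M1BP RNAi and 0.198, 0.292 and 0.219 CPM in WT.

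The sliding clamp and the 6 helicase subunits averaged under 2 CPM in both groups. The sliding clamp PCNA averaged 0.162 CPM in M1BP RNAi and 0.110 CPM in WT, and Mcm3, Mcm5 and Mcm7 of the replicative helicase were likewise too low to test. The other helicase subunits were not called: dpa had 1.25 CPM in M1BP RNAi and 0.493 CPM in WT, Mcm2 had 0.744 CPM in M1BP RNAi and 0.231 CPM in WT, and Mcm6 had 1.28 CPM in M1BP RNAi and 0.969 CPM in WT. Of these 3 tested genes dpa and Mcm2 had an unadjusted edgeR p under 0.05, both higher in M1BP RNAi (log2 fold changes 1.02 ± 0.26 and 1.36 ± 0.50 SE), and DESeq2 called 0. Nor were drivers of the cell cycle called. CycA was at 0.405 CPM in M1BP RNAi and 0.391 CPM in WT, CycB at 1.68 CPM in M1BP RNAi and 1.34 CPM in WT, and Cdk1 at 0.380 CPM in M1BP RNAi and 0.387 CPM in WT, and CycE, stg, polo, aurB and E2f1 were not called either. Of those 8 drivers 2 had an unadjusted p under 0.05 in edgeR (CycE, log2 fold change -0.99 ± 0.23 SE, and polo, 1.16 ± 0.45 SE), and DESeq2 called 0.

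**Figure D3:**
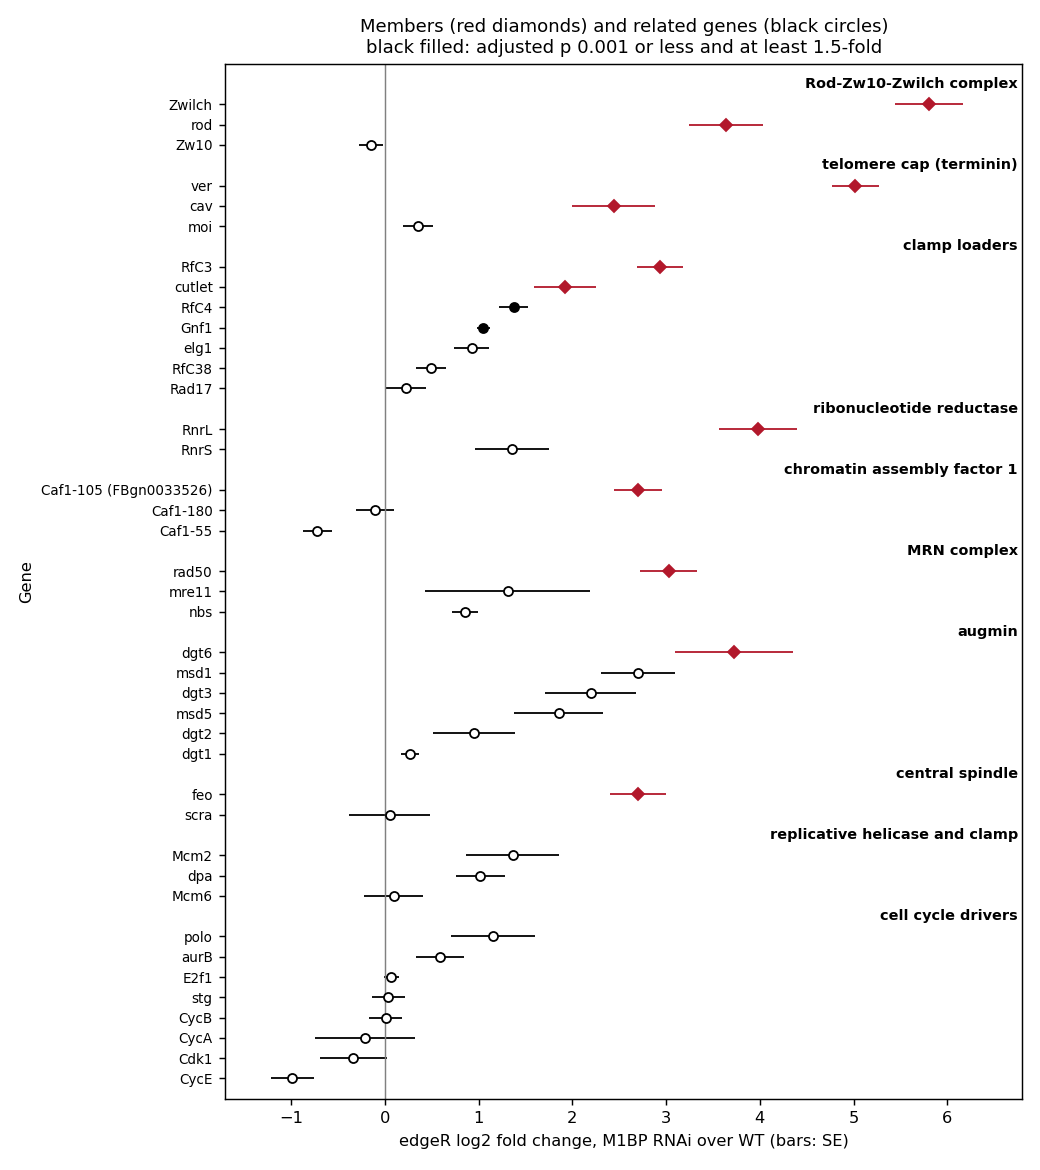
edgeR log2 fold change of M1BP RNAi over WT with its SE (x axis) for members (red diamonds, chosen by this contrast) and for other genes of the same complexes, of the replicative helicase and clamp and of the cell cycle (black circles, filled where called by edgeR). Zwilch at 5.80 and rod at 3.64 stand apart from Zw10 at -0.15, and RfC4 and Gnf1 are the filled black circles.

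Repair and chromatin gave 4 more members. rad50, a subunit of the MRN complex that binds broken DNA ends, had 4.12, 3.33 and 2.15 CPM in M1BP RNAi and 0.296, 0.292 and 0.345 CPM in WT. Its partner nbs averaged 6.62 CPM in M1BP RNAi and 2.94 CPM in WT, and was called higher by DESeq2 but not by edgeR (log2 fold change 0.85 ± 0.14 SE, adjusted p 0.00507 in edgeR). The third subunit, mre11, had 12.6, 13.2 and 9.44 CPM in M1BP RNAi and 0.864, 0.792 and 9.84 CPM in WT, so WT replicate 3 alone read like the M1BP RNAi libraries. It was not called by edgeR or DESeq2 (log2 fold change 1.31 ± 0.88 SE), whereas without WT replicate 3 its WT mean was 0.828 CPM and edgeR called it higher, at 3.52 on the log2 scale. Fancd2, of the Fanconi pathway of crosslink repair, had 1.59, 1.60 and 1.47 CPM in M1BP RNAi and 0.0988, 0 and 0 CPM in WT, a pooled ratio of 37.5 on 4 WT counts (exact 95% counting interval 14.4 to 139). FBgn0033526, which encodes a subunit of chromatin assembly factor 1, the depositor of histones behind the replication fork, had 3.17, 2.72 and 2.45 CPM in M1BP RNAi and 0.321, 0.25 and 0.439 CPM in WT. The other subunits Caf1-180 and Caf1-55 were not called, with log2 fold changes of -0.11 ± 0.20 and -0.72 ± 0.16 (SE). timeout, of the Timeless family of fork and clock proteins, had 1.14, 1.24 and 1.06 CPM in M1BP RNAi and 0.123, 0.208 and 0.313 CPM in WT.

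Ote encodes Otefin, a LEM domain protein of the inner nuclear membrane. It had 3.28, 1.82 and 1.21 CPM in M1BP RNAi and 0.222, 0.167 and 0.125 CPM in WT. Its M1BP RNAi libraries were spread widely, with replicate 1 the highest and replicate 3 the lowest. Over all 15 of these members and the 44 other genes listed with them, 34 of the 44 could be tested. By edgeR, 2 of those rose and none fell, by DESeq2 3 rose and none fell, and at an unadjusted edgeR p under 0.05 the counts were 15 up and 2 down. For the 34 the median log2 fold change was 0.42, beside -0.02 over all genes tested. Of the 44, 18 were near-silent in WT, and such a gene could pass the filter on low counts through its M1BP RNAi libraries alone. The filter can thus tilt these counts and this median upward, and nothing is read from them.

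Members outside the chromosome groups had diverse roles. Pop1 encodes a subunit of RNase P and RNase MRP, which process tRNA and rRNA precursors. It had 2.14, 2.48 and 1.98 CPM in M1BP RNAi and 0.0494, 0.167 and 0.219 CPM in WT, whereas the 7 tested partners, Rpp14a, Rpp20, Rpp21, Rpp25, Rpp30, Pop4 and Pop5, averaged 1.63 to 110 CPM in M1BP RNAi and 1.06 to 95.9 CPM in WT and were not called by edgeR (2 had an unadjusted p under 0.05, and DESeq2 made no call among them). Hsc70-2, an Hsp70 cognate, had 3.42, 3.75 and 3.57 CPM in M1BP RNAi and 0.0988, 0 and 0.313 CPM in WT. Of the other cognates Hsc70-4 rose, at 2395 CPM in M1BP RNAi and 1185 CPM in WT (log2 fold change 0.70 ± 0.07 SE), and Hsc70-3 and Hsc70-5 were called by neither tool. Hsc70-1 was called lower by DESeq2 but not by edgeR, at 319 CPM in M1BP RNAi and 404 CPM in WT (-0.66 ± 0.09 SE, adjusted p 0.00242 in edgeR). In edgeR fits without 1 library, Hsc70-4 lost its call whichever library was left out, and Hsc70-1 was called lower without WT replicate 3.

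ATPsynepsilonL, a paralogue of the epsilon subunit of ATP synthase, had 1.36, 1.12 and 1.27 CPM in M1BP RNAi and 0.0988, 0.125 and 0.0940 CPM in WT. The main epsilon gene, sun, averaged 1290 CPM in M1BP RNAi and 1161 CPM in WT and was not called. CG31141, of the fatty acid elongase family, had 2.03, 2.09 and 2.57 CPM in M1BP RNAi and 0.0741, 0.0417 and 0.219 CPM in WT. HisT had 1.31, 1.48 and 1.24 CPM in M1BP RNAi and 0.469, 0.125 and 0.439 CPM in WT.

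PPO1 encodes a prophenoloxidase of crystal cells, a blood cell type. It had 1.98, 1.12 and 1.03 CPM in M1BP RNAi, against 0.198, 0.458 and 0.0940 CPM in WT. PPO2 had 2.37, 0.333 and 0.649 CPM in M1BP RNAi and 0.173, 0.333 and 0.125 CPM in WT and was called by neither tool, and without M1BP RNAi replicate 1 its M1BP RNAi mean was 0.491 CPM, against 1.12 CPM with it. The haemocyte markers Hml, NimC1, eater, srp, Pxn, He and crq summed to 65.1 to 93.5 CPM in M1BP RNAi and 38 to 47.3 CPM in WT. The 6 of them that could be tested gave no call in edgeR, 2 with an unadjusted p under 0.05, and 1 call in DESeq2, and their part in the PPO1 values was not tested.

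M1BP RNAi replicate 3 read lowest of its group for 32 of the 50 members, and replicate 2 highest for 27. Replicate 1 was the highest for 15, among them RnrL, rad50, Ote and PPO1. That library also held more RNA of tubular muscle: Act79B and TpnC41C summed to 2003, 180 and 191 CPM in M1BP RNAi, against 1146, 582 and 504 CPM in WT. Fat body markers summed to 443, 373 and 246 CPM in M1BP RNAi and 129, 369 and 110 CPM in WT. Without M1BP RNAi replicate 1 the rule took 54 genes, and the lowest log2 fold change of any member in a fit without 1 library was 1.26. Since the rule sets the groups apart in every library, neither value is a sign of stability. The part of other tissues in the members' values was not tested.

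The members included 40 protein-coding genes, 8 noncoding RNAs, 1 small nucleolar RNA and FBgn0263039, an ID that the annotation used here does not hold (3.06, 3.15 and 2.54 CPM in M1BP RNAi and 0.247, 0.375 and 0.251 CPM in WT). lncRNA:CR46253 had 3.79, 4.39 and 3.27 CPM in M1BP RNAi and 0, 0 and 0.125 CPM in WT, a pooled ratio of 91.8 on 4 WT counts (exact 95% counting interval 35.6 to 339). lncRNA:marge had 2.37, 2.12 and 2.03 CPM in M1BP RNAi and 0.247, 0.375 and 0.251 CPM in WT. Noncoding members had a median ratio of means of 9.36 and protein-coding members of 11.4. The long noncoding RNAs of the whole table numbered 1904, of which 134 could be tested, with a median log2 fold change of 0.19. By edgeR 4 rose, among them the members lncRNA:CR43264 and lncRNA:marge, chosen by this contrast, and 2 fell. DESeq2 called 18 higher and 2 lower. Antisense RNAs numbered 491, with 83 tested, 2 called higher (among them the member asRNA:CR45195) and 1 lower, and 7 and 3 called by DESeq2. Most such RNAs were near-silent in WT (1793 and 429 of them), and 5 long noncoding and 3 antisense RNAs are members.

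Several members overlap other genes, and reads in a shared same-strand exon were counted for each gene. lncRNA:CR44999 shares 1859 of its 2025 exon bases with Myc, and read 1.84, 1.54 and 1.33 CPM in M1BP RNAi and 0.346, 0.333 and 0.376 CPM in WT. Myc, the growth regulator, averaged 5.06 ± 0.649 CPM in M1BP RNAi and 1.42 ± 0.308 CPM in WT (SD, n = 3 each) and was not called (log2 fold change 1.51 ± 0.21 SE, adjusted p 0.00233 in edgeR), although DESeq2 called it higher, and the reads of lncRNA:CR44999 cannot be told apart from those of Myc. CG31323 shares 906 exon bases with CG31086 (1.67, 1.73 and 1.47 CPM in M1BP RNAi and 0.469, 0.417 and 0.188 CPM in WT), CG32195 shares 223 with CG7341 (3.17, 3.36 and 2.15 CPM in M1BP RNAi and 0.321, 0.292 and 0.219 CPM in WT), and timeout shares 5 with CG34308. These 3 partners were at 0.459, 0.0887 and 0.0502 CPM in M1BP RNAi. Qtzl, a young chimeric gene that carries part of the cysteine desulfurase gene Nfs1, read 2.20, 2.85 and 2.36 CPM in M1BP RNAi and 0.494, 0.292 and 0.219 CPM in WT. Nfs1 itself rose, at 353 ± 18.8 CPM in M1BP RNAi and 116 ± 2.94 CPM in WT (SD, n = 3 each), and because the copies are alike the level of Qtzl is uncertain.

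snoRNA:Me18S-U1356c lies in an intron of Uhg8, a host gene of small nucleolar RNAs, on the same strand. It had 1.48, 1.63 and 1.45 CPM in M1BP RNAi and 0.173, 0.25 and 0.188 CPM in WT, and Uhg8 had 0.807, 0.787 and 0.560 CPM in M1BP RNAi and 0.247, 0.208 and 0.157 CPM in WT. Uhg8 thus stood higher in each M1BP RNAi library, which for the snoRNA the rule demands, and Uhg8 was not called (adjusted p 0.0220 in edgeR). Reads of unspliced Uhg8 RNA over the 79 bases of the snoRNA cannot be told apart from its own. CG42395 lies inside LPCAT on the same strand and had 1.75, 1.66 and 2.30 CPM in M1BP RNAi and 0.0494, 0.0834 and 0.251 CPM in WT. LPCAT had 4.65, 4.84 and 5.54 CPM in M1BP RNAi and 1.04, 1.42 and 4.32 CPM in WT, with WT replicate 3 near the M1BP RNAi libraries. WT replicate 3 was the highest WT library for CG42395 too, which the rule keeps under 0.5 CPM there.

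asRNA:CR45999 overlaps 1382 exon bases of CG9855 on the opposite strand, and the 2 RNAs stood the other way round to each other. asRNA:CR45999 had 1.42, 1.36 and 1.00 CPM in M1BP RNAi and 0.222, 0.375 and 0.282 CPM in WT. CG9855 fell to 2.87, 2.45 and 2.21 CPM in M1BP RNAi, against 15.4, 16.7 and 17.0 CPM in WT (log2 fold change -3.02 ± 0.11 SE, adjusted p 2.4e-05 in edgeR). The strand of the reads separated them, since 39 genes covered completely by the exons of a gene on the other strand held a median of 0.518% of its reads per base.

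asRNA:CR45195 and CG14695 were the only members within 20 kb of each other, 420 bases apart on the minus strand of chromosome 3R. asRNA:CR45195 had 1.36, 1.54 and 1.36 CPM in M1BP RNAi and 0.0741, 0.0417 and 0.0940 CPM in WT, and CG14695 had 2.62, 4.0 and 2.30 CPM in M1BP RNAi and 0, 0.125 and 0.0313 CPM in WT. Both overlap Sodh2 on the opposite strand, by 765 and 54 exon bases. Sodh2, a sorbitol dehydrogenase, had 10.5, 11.0 and 10.5 CPM in M1BP RNAi and 6.77, 13.6 and 48.7 CPM in WT, so its M1BP RNAi libraries fell within the range of its WT libraries.

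The rule used no count of the genes beside a member, but reads that ran on from an upstream gene into a member on the same strand cannot be told apart from the member's own transcripts in a table of counts per gene, so these neighbours are not fully independent of it. The nearest gene on each side gave 99 genes that are not members, of which 64 could be tested. Of these, 5 were called higher (7.81%, beside 2.20% of all genes tested) and 1 lower (1.56%, beside 2.88%), and their median log2 fold change was -0.05, beside -0.02. Of those 5, 3 lie upstream of their member on the same strand (CG31467, mus201 and ImpL2). CG31467 rose, at 15.9 ± 0.890 CPM in M1BP RNAi and 2.38 ± 0.119 CPM in WT (SD, n = 3 each), and ends 94 bases before CG31391 on the same strand. CG31391, the member with the lowest mean CPM in M1BP RNAi, had 1.03, 1.30 and 1.06 CPM in M1BP RNAi and 0.272, 0.333 and 0.376 CPM in WT. mus201, a nuclease of nucleotide excision repair, rose, at 6.19 ± 0.991 CPM in M1BP RNAi and 1.54 ± 0.210 CPM in WT (SD, n = 3 each), and ends 104 bases before CG31897, which had 1.36, 1.36 and 1.59 CPM in M1BP RNAi and 0.123, 0.0834 and 0.0940 CPM in WT.

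ImpL2, a secreted antagonist of insulin signalling, rose, at 193 ± 19.0 CPM in M1BP RNAi and 18.1 ± 1.14 CPM in WT (SD, n = 3 each). It lies 1271 bases upstream of asRNA:CR32252 on the same strand, which had 2.14, 2.12 and 2.01 CPM in M1BP RNAi and 0.123, 0.125 and 0.313 CPM in WT. Cubn, an endocytic receptor, rose, at 4.75 ± 0.163 CPM in M1BP RNAi and 0.753 ± 0.147 CPM in WT (SD, n = 3 each), 3817 bases downstream of CG42395. CG1542, head to head with Zwilch across 81 bases, rose, at 12.8 ± 1.14 CPM in M1BP RNAi and 3.13 ± 0.400 CPM in WT (SD, n = 3 each). The call for lower was CG9855, described with its antisense member.

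Some members start next to an active gene that points the other way. With a window of 500 bases between annotated starts, chosen after the values were seen, 17 of the 50 (34%) faced another gene, and for 13 (26%) that gene was at 1 CPM or more in WT. Among the 8946 genes near-silent in WT that the rule did not take, the shares were 15.9% and 4.89%, and among the 3354 of those with 2 or more WT counts they were 15.4% and 7.87%. Among the 8756 genes tested that are not members they were 37.7% and 29.5%. By this layout the members were nearer to the tested genes than to the other near-silent ones. Median exon length was 2058 bases in the members, 901 in the near-silent genes not taken and 2158 in the tested genes. It was 1362 in those not taken with 2 or more WT counts. Among protein-coding genes it was 2285 in the members and 1193 in the near-silent genes not taken. CPM is not scaled for length, so a longer gene reaches 1 CPM more readily and the difference in length is partly built in. These are shares and medians set side by side, with no test.

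Of the 13 facing genes 1, CG1542 opposite Zwilch, was called. None was called lower by edgeR or by DESeq2, with 4 lower and 3 higher at an unadjusted edgeR p under 0.05 and 3 called higher by DESeq2. Their log2 fold changes ran from -0.58 to 1.72, with a median of -0.14. Gcn5, a histone acetyltransferase gene whose start is 27 bases from that of ver, had a log2 fold change of 1.00 ± 0.16 (SE, adjusted p 0.00430 in edgeR, called higher by DESeq2) beside 5.02 for ver, and their exons overlap by 28 bases on opposite strands. Mlc-c, a myosin light chain gene that starts 109 bases from Pop1, averaged 29.8 CPM in M1BP RNAi and 26.5 CPM in WT (-0.15 ± 0.09 SE) beside 3.64 for Pop1. sba opposite CG31141, Vha100-1 opposite dgt6 and pygo opposite rod had log2 fold changes of -0.20, -0.21 and -0.36, and their members 3.94, 3.72 and 3.64.

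**Figure D4:**
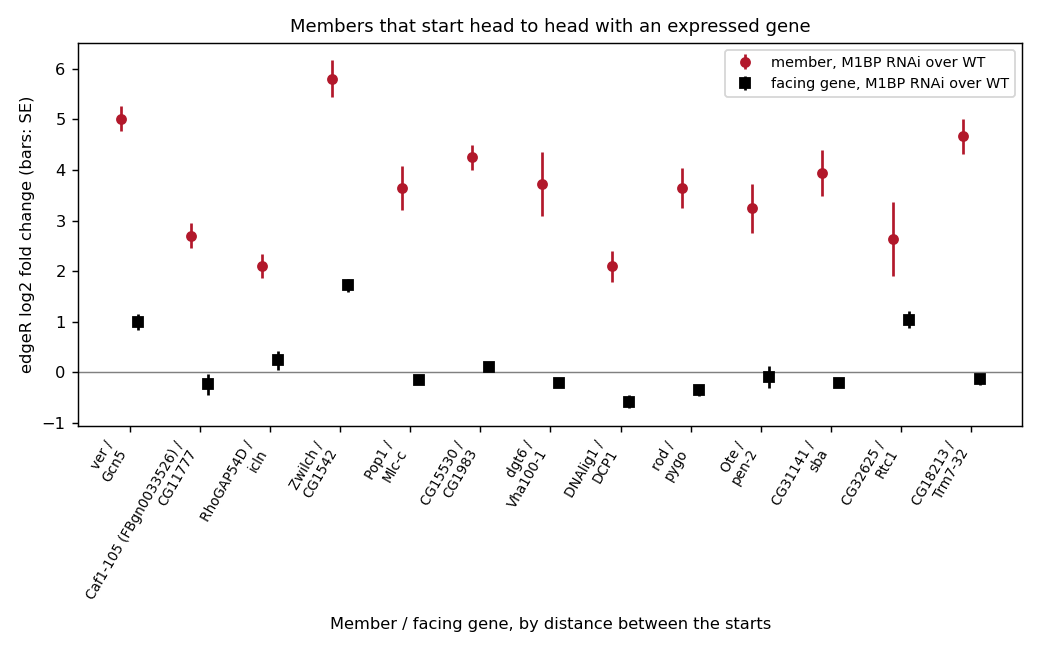
edgeR log2 fold change of M1BP RNAi over WT with its SE (y axis) for the 13 members (red circles, chosen by this contrast) that start within 500 bases of an expressed gene on the opposite strand, and for that facing gene (black squares), ordered by the distance between the starts (x axis). The facing genes lie between -0.58 and 1.72, with CG1542 the highest. Each lies below its member, an order that the choice of the members by their rise largely sets.

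By chromosome, 20 of the 50 members (40%) lie on 3R, where 22.6% of the near-silent genes not taken and 24.6% of the other tested genes lie. X held 6, 2L, 2R and 3L held 8 each, and 4 and Y held 0. The 6 members on X (12%) compare with 13.2% of the near-silent genes not taken. This share does not speak to the roX1 difference between libraries, whose part in the members' values was not tested.

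Several lists of near-silent genes had no member. Since the rule took 0.556% of all near-silent genes, a count of 0 in lists of this size is near that share and is no result about them. All 6 measured germline markers (vas, bam, piwi, aub, zpg and osk) were under 0.5 CPM in each WT library, and none reached 1 CPM in M1BP RNAi, where their sum was 0.167 to 0.354 CPM, against 0.198 to 0.282 CPM in WT. Of 12 testis markers 8 were near-silent in WT, and of 14 antimicrobial peptide genes 13, with no member in either list. Of 186 odorant, gustatory and ionotropic receptor genes 177 were near-silent in WT and none was a member, and of 35 UDP-glycosyltransferases 25 were near-silent and none was a member. Cytochrome P450 genes numbered 87, of which 46 were near-silent in WT and 1, Cyp12c1, was a member. Of the 43 P450 genes tested 3, among them Cyp12c1, were called higher and 1 lower, with a median log2 fold change of 0.24.

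How close the thresholds cut can be seen from the genes at their edge. The members nearest to 0.5 CPM in WT were Qtzl, feo and rod, at up to 0.494, 0.470 and 0.469 CPM, and GstE9, CG6041 and Pdrg1 were left out at 0.5 CPM in 1 WT library. The members nearest to 1 CPM in M1BP RNAi were asRNA:CR45999, CG31391 and PPO1, at 1.00, 1.03 and 1.03 CPM in their lowest library, and Hao, lncRNA:CR32368 and RecQ4 were left out at 0.974, 0.946 and 0.944 CPM. RecQ4, a helicase gene, had 0.974, 1.57 and 0.944 CPM in M1BP RNAi and 0.148, 0.0834 and 0.188 CPM in WT. CG6041 had 4.01, 3.06 and 2.57 CPM in M1BP RNAi and 0.494, 0.5 and 0.376 CPM in WT.

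The members not described so far stood between 1.03 and 2.91 CPM in each M1BP RNAi library. CG10445 rested on the fewest WT reads, with 2.59, 2.91 and 1.95 CPM in M1BP RNAi and 0.0494, 0 and 0 CPM in WT, a pooled ratio of 119 on 2 WT counts (exact 95% counting interval 32.7 to 992). CG18213 had 1.42, 1.51 and 1.30 CPM in M1BP RNAi and 0.0494, 0.0417 and 0.0313 CPM in WT, a pooled ratio of 34.0 on 4 WT counts (interval 13.0 to 126). lncRNA:CR44716, which lies wholly opposite lncRNA:CR44717, had 1.20, 1.66 and 1.12 CPM in M1BP RNAi and 0.0988, 0.208 and 0.219 CPM in WT, at 3.17 CPM per kb. CG32625 had the widest range among WT libraries, with 1.25, 1.30 and 1.65 CPM in M1BP RNAi and 0.0247, 0.0834 and 0.439 CPM in WT. CG9498, CG17549, CG17111, CG12224 and CG10073 averaged 1.5 to 2.29 CPM in M1BP RNAi and 0.139 to 0.293 CPM in WT.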

How the data were processed

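RNA of 3 M1BP RNAi and 3 WT flight muscle samples was sequenced by the authors from stranded polyA libraries. The deposited table holds raw counts of uniquely mapped reads per gene over exons on dm6 (the submitters' processing notes name bcl2fastq 2.17.1.14, featureCounts of Subread 2.0.3 and DESeq2 1.3.0), which are not normalised. The annotation release and the strand setting are not given in the sources used here. A further deposited table holds the authors' own comparison (mean normalised counts, fold changes and p-values), and only its pairing of IDs with symbols was used. 1 line that names no gene held 0 counts and was left out. Groups and replicate numbers come from the sample titles. The labels do not say that replicates came from separate crosses, so p-values measure the spread between these samples.

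Of 17494 genes, 17358 matched the reference annotation, 17218 with the same start and end. Nuclear CPM was computed from the counts, with 0.5 and 1 CPM as thresholds. All genes were tested with edgeR 4.0.16 (quasi-likelihood, TMM scaling, filterByExpr, Benjamini-Hochberg adjustment) in R 4.3.3, and a call needed a 1.5-fold change and an adjusted p no higher than 0.001, as in the methods of the study. Each SE was derived as the log2 fold change over the square root of F. Intervals of count ratios are exact binomial at 95% and cover counting error only. Within each group every pair of libraries differed by more than sampling noise (chi-square per degree of freedom 46.5 to 448), so all were kept. The code was tested on simulated data.

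The members and gene lists were chosen with earlier results of these data known. The genes named are M1BP, the members with the 15 highest CPM, the 15 largest fold changes or the 5 highest CPM per kb, members on a list, within 20 kb of each other or sharing exons, called neighbours, the 3 genes on either side of each threshold and the 5 leading genes of the mirror rule. Other members and the subunits of their complexes were chosen after their values were seen. The insertion controls tio and w were not called, at 0.469 and 242 CPM in M1BP RNAi and 0.305 and 180 CPM in WT. Alternatives were other CPM denominators and thresholds, RLE scaling, DESeq2 1.42.0, other filters, nuclear genes only, the replicate number as a block, a looser call (adjusted p of 0.05 at any fold) and leaving out each library. The values of 1 member are not reported in the text here. A search for promoter motifs was not run, since no sequence was at hand.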

Additional observations from a re-analysis of the deposited data

How the results depend on the processing

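The rule gave 50 genes. It took 18 with a lower threshold of 0.25 CPM and 195 with 1 CPM, 21 with an upper threshold of 2 CPM and 147 with 0.5 CPM, 118 with WT replicate 3 as the sole WT library, and 54 to 77 without any 1 library. The mirror rule gave 6, and took 2 with all counts in the denominator, 11 with TMM library sizes, 0 and 26 with those lower thresholds, 1 and 19 with those upper thresholds, 15 with WT replicate 3 as the sole WT library and 6 to 11 without any 1 library. A looser threshold or fewer libraries can only add genes, by construction. The cause of the size of these moves was not tested. Leaving out same-strand exon sharing gave 46 and 4.

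Over all genes edgeR called 194 higher and 254 lower. DESeq2 called 572 and 477, a call at an adjusted p of 0.05 and any fold gave 1212 and 1489, and leaving out 1 library gave 26 to 246 and 44 to 231. Of the members 22 were called, with 43 under DESeq2, 50 at 0.05 and 2 to 20 without 1 library, where CG7900 and ver kept the call in each of the 6 fits. Beside the members 5 genes were called higher and 1 lower, with 10 and 2 under DESeq2, 17 and 8 at 0.05, and 2 to 4 and 1 without 1 library. Members could not be tested at 10 counts in every library, which removes all of them. The cause of the other differences was not tested.

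With the replicate number as a block, 75 genes were higher and 116 lower, with 6 members called and 3 and 1 genes beside them. The numbers share no stated source, and same-numbered libraries deviated together with r = 0.31, -0.04 and 0.27, so they were not taken as pairs; M1BP RNAi replicate 2 did not correlate best with its own number.

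Low counts limit the WT side: 0.5 CPM was 12 to 20.2 counts, and WT sums of the members ran from 2 to 36 counts, so the ratios rest on few WT reads and levels under 0.125 CPM cannot be told from the floor in the shallowest library. Libraries differ in roX1 and in RNA of other tissues along with the groups. Only 1 RNAi line was sequenced.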

Other observations

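A pair of cytochrome P450 genes that were not near-silent in WT also rose, beside the member Cyp12c1. Cyp6a13 was just above the rule in WT, at 8.84 ± 0.158 CPM in M1BP RNAi and 0.473 ± 0.0673 CPM in WT (SD, n = 3 each), a log2 fold change of 3.91 ± 0.15 (SE, adjusted p 2.4e-05 in edgeR). Cyp9c1 had 147 ± 12.9 CPM in M1BP RNAi and 28.3 ± 3.74 CPM in WT (2.05 ± 0.13 SE), and Cyp4p2 fell, at 2.81 ± 0.626 CPM in M1BP RNAi and 12.4 ± 1.97 CPM in WT (-2.46 ± 0.18 SE). Among noncoding RNAs that are not members, lncRNA:CR45361 rose, at 13.4 ± 1.34 CPM in M1BP RNAi and 0.950 ± 0.304 CPM in WT (SD, n = 3 each), and so did lncRNA:CR46219, at 68.1 ± 1.22 CPM in M1BP RNAi and 16.2 ± 4.14 CPM in WT. Ir25a, an ionotropic receptor gene, rose, at 29.1 ± 2.25 CPM in M1BP RNAi and 11.5 ± 1.22 CPM in WT (1.02 ± 0.11 SE), whereas 177 of its class were near-silent in WT. These genes were chosen after their values were seen, from the calls within the families listed.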
